A study of Rattus norvegicus with 15 samples.

Results

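Intercalated cells are the acid-base cells of the collecting duct and connecting tubule of the kidney. Their V-ATPase, a proton pump built of a membrane sector and a cytosolic sector, uses several subunit isoforms that few other cells make. Type A cells secrete acid and return bicarbonate to the blood through the anion exchanger AE1 (Slc4a1), whereas type B cells secrete bicarbonate through pendrin (Slc26a4). Carbonic anhydrase 2 (Car2) supplies both with protons and bicarbonate, and in mice the forkhead factor Foxi1 is needed for these cells to form. The 9 genes described here are 5 pump subunits (Atp6v1b1, Atp6v0a4, Atp6v0d2, Atp6v1c2 and Atp6v1g3), the exchangers Slc4a1 and Slc26a4, Foxi1 and Car2. They were selected by symbol, without use of their values, and each had 1 row among the 34357 rows that carried a gene identifier.

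Total RNA was sequenced from 7 kidney cortex and 8 mesenteric artery libraries of Dahl salt-sensitive (SS) rats, inbred animals that become hypertensive when fed salt. In knockout (KO) rats a stretch of noncoding DNA, 30.4 kb long, had been deleted from chromosome 2 (60825801 to 60856216, rn7); wild-type (WT) rats kept it. There were 4 KO and 3 WT kidneys, and 4 KO and 4 WT arteries. The series asks which genes the deletion may influence in these tissues. The titles call all animals male; age and diet are not given in the sources used here. The labels do not state whether libraries came from separate animals, so p-values measure the spread between these libraries, which may in part be technical. Only whole tissue was measured, so fewer cells of a type and less RNA per cell cannot be told apart.

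The summed FPKM (fragment count scaled by gene length and by library size) was 376270 to 459847 per kidney library and 285679 to 433477 per artery library; read depths are unknown. Kidney and artery carried their own markers: Slc34a1, the main proximal tubule phosphate transporter, averaged 1039 FPKM in kidney and 0.343 in artery, and Acta2, smooth muscle actin, 11.0 in kidney and 796 in artery. Intercalated cell genes outside the 9 were present in kidney, among them the ammonia channel Rhcg at 24.3 to 50.4 FPKM and the anion exchanger Slc4a9 at 9.92 to 32.3. Certain libraries stood apart. Kidney WT 3 had 81.1 FPKM of Xist, against 0.0989 to 1.30 in the other 14 libraries, and listed the Y-linked Eif2s3y at 0, which goes against its title. Artery WT 4 held the most haemoglobin transcript and kidney KO 2 the highest levels of most of the 9 genes; results that rest on these libraries are given with and without them.

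Of the 9 genes, 6 had a promoter window in the RefSeq table of build GRCr8, which is not the build of the expression table. The windows below cover the 250 bases before the annotated start, 5′ to 3′ on the strand of the gene, and are shown for the pump subunit with a forkhead motif, for the most abundant pump subunit and for the forkhead factor itself. Capitals mark the motif GTAAACA or its reverse complement TGTTTAC, which were searched on both strands and overlap no other motif searched. The Atp6v1b1 window lies at chr4:117781194-117781443 on the plus strand, the Atp6v0a4 window at chr4:67809093-67809342 on the minus strand and the Foxi1 window at chr10:19314406-19314655 on the minus strand.
Atp6v1b1: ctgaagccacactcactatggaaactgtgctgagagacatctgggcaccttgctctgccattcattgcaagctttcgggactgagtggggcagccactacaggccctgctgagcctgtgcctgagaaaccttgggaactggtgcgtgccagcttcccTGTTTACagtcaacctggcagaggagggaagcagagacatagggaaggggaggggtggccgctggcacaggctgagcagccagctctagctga
Atp6v0a4: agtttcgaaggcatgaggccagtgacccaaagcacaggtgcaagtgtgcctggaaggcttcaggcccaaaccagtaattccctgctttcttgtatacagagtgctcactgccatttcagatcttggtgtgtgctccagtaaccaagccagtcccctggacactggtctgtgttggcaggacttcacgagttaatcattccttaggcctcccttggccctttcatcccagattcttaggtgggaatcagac
Foxi1: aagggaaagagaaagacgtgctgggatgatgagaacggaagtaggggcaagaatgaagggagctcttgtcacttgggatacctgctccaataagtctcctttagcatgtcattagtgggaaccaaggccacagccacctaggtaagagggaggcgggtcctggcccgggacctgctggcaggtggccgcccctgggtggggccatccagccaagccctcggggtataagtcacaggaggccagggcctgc

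Only the Atp6v1b1 window held the motif, as TGTTTAC starting 93 bases before the start. It was found in 1 of the 6 windows, and in 1076 of all 33469 windows of this length (3.21%). The match is a description of the letters and shows no binding; the windows of Atp6v1c2, Atp6v1g3 and Slc26a4 held no match.

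In the kidney, limma called 0 of 15444 genes (0%) changed in KO rats at an adjusted p under 0.05, and none of the 9 genes was among the 217 (1.41%) with an unadjusted p under 0.05. The log2 fold changes of KO over WT, fitted on log2(FPKM + 0.5), ran between -0.14 for Car2 and 0.25 for Foxi1, and the adjusted p was 0.999 for each of the 9. Their median was -0.03, with 3 above 0 and 6 below, beside a median of 0.04 over all genes tested. The KO and WT ranges overlapped for all 9 genes; over all genes tested, the ranges did not overlap for 394 (2.55%).

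Atp6v1b1, the B1 subunit of the cytosolic sector, lies on chromosome 4 (116223799 to 116242475, rn7, plus strand). It stood at 27.0, 49.3, 27.4 and 26.2 FPKM in KO kidneys 1 to 4 and at 38.9, 27.4 and 30.6 in WT kidneys 1 to 3. KO 2 was the highest library and WT 1 the next, so the group means were nearly equal, 32.5 ± 11.3 FPKM in KO (SD, n = 4) and 32.3 ± 5.92 in WT (SD, n = 3). The log2 fold change was -0.03 (SE 0.23, 95% confidence interval -0.55 to 0.49). In humans, loss of this subunit causes distal renal tubular acidosis with deafness.

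Atp6v0a4, the a4 subunit of the membrane sector, was the most abundant of the 5 pump subunits per length (chromosome 4, 66760163 to 66842126, minus strand). It stood at 131, 116, 138 and 119.6 FPKM in KO kidneys and at 143, 112 and 113 in WT kidneys. Its 7 kidney values spanned 1.27-fold, and unlike those of the other pump subunits they were not highest in KO 2. The log2 fold change was 0.04 (SE 0.17, interval -0.33 to 0.42). Atp6v0a4 overlaps Tmem213 on the opposite strand, listed at 17.2 to 44.3 FPKM in kidney, and RGD1306271 on its own strand, at 2.95 to 4.04; the sources used here do not state whether reads were assigned by strand, so the levels of these genes are uncertain. The proximal tubule also makes this subunit, as known from mouse and human.

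Atp6v0d2, the d2 subunit of the membrane sector (chromosome 5, 33336257 to 33385354, minus strand), stood at 17.1, 37.0, 15.6 and 21.0 FPKM in KO kidneys and at 28.3, 18.5 and 22.3 in WT kidneys. Again KO 2 was highest and WT 1 second. Atp6v1c2, the C2 subunit of the cytosolic sector (chromosome 6, 40080545 to 40144199, minus strand), stood at 10.1, 23.4, 8.94 and 12.7 FPKM in KO kidneys and at 15.5, 10.6 and 12.2 in WT kidneys. Atp6v1g3, the G3 subunit of the same sector (chromosome 13, 49800256 to 49825247, plus strand), stood at 8.47, 21.2, 8.19 and 11.3 FPKM in KO kidneys and at 10.9, 11.0 and 15.1 in WT kidneys. For Atp6v1g3 the second-highest library was WT 3, not WT 1. The log2 fold changes were -0.09 (SE 0.27) for Atp6v0d2, 0.02 (SE 0.29) for Atp6v1c2 and -0.09 (SE 0.29) for Atp6v1g3.

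Slc4a1, which encodes AE1 (chromosome 10, 87306865 to 87323132, minus strand), stood at 29.0, 49.1, 22.5 and 27.5 FPKM in KO kidneys and at 39.7, 27.4 and 28.5 in WT kidneys. Slc26a4, which encodes pendrin (chromosome 6, 48107575 to 48153762, minus strand), stood at 17.9, 44.5, 17.4 and 19.7 FPKM in KO kidneys and at 28.3, 20.6 and 20.8 in WT kidneys. The exchanger of type A cells and that of type B cells were thus both highest in KO 2 and second highest in WT 1. Their log2 fold changes were -0.04 (SE 0.25, interval -0.59 to 0.52) for Slc4a1 and -0.01 (SE 0.30, interval -0.68 to 0.67) for Slc26a4. Slc26a4 overlaps 2 sparsely transcribed gene models, LOC102555378 at 0.159 to 0.918 FPKM and LOC120103520 at 0 to 0.255 FPKM in kidney.

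Foxi1, which in mice drives the genes of the intercalated cell (chromosome 10, 18806292 to 18810231, minus strand), stood at 6.70, 13.5, 5.40 and 5.38 FPKM in KO kidneys and at 7.63, 4.80 and 5.74 in WT kidneys. Its mean was 7.74 ± 3.88 FPKM in KO (SD, n = 4) and 6.06 ± 1.44 in WT (SD, n = 3), and the log2 fold change was 0.25 (SE 0.30, interval -0.41 to 0.92). Without KO 2 it was -0.03. Car2, the abundant cytosolic carbonic anhydrase (chromosome 2, 86741625 to 86756766, minus strand, outside the deleted interval), stood at 278, 196, 244 and 262 FPKM in KO kidneys and at 211, 247 and 369 in WT kidneys. Its order of libraries was its own, with KO 2 lowest and WT 3 highest. The log2 fold change of Car2 was -0.14 (SE 0.24, interval -0.68 to 0.40), and 0.09 without WT 3.

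**Figure D1:**
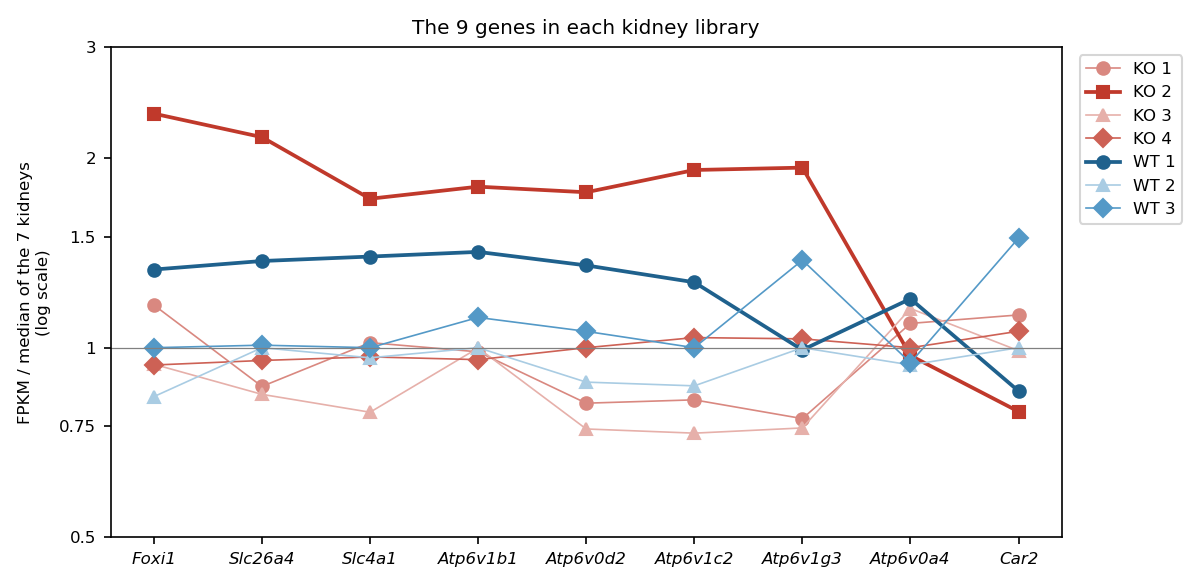
FPKM of each of the 9 genes in each kidney library (vertical log axis, relative to the median of the 7 kidneys), with a line joining the values of each library. Kidney KO 2 is highest for 7 of the 9 genes and lowest for Car2, and kidney WT 1 is second for 6 of those 7.

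Per length, the order over the 7 kidneys ran from Car2 (258 ± 56.5 FPKM, SD, n = 7) and Atp6v0a4 (124.7 ± 12.5) through Atp6v1b1 (32.4 ± 8.66), Slc4a1 (32.0 ± 9.16), Slc26a4 (24.2 ± 9.65), Atp6v0d2 (22.8 ± 7.52), Atp6v1c2 (13.4 ± 4.91) and Atp6v1g3 (12.3 ± 4.54) to Foxi1 (7.02 ± 3.01). Atp6v1b1 and Slc4a1, Slc4a1 and Slc26a4, Slc26a4 and Atp6v0d2, and Atp6v1c2 and Atp6v1g3 did not differ beyond their spread. Slc4a1 nonetheless exceeded Slc26a4 in each of the 7 kidneys.

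Kidney KO 2 had the highest level of 7 of the 9 genes. It was also the highest of the 7 libraries for 5822 of all 15444 genes tested (37.7%), and for 4117 (26.7%) after median-of-ratios scaling, which left the 7 of 9 as they were. Set against the median of the other 6 kidneys, its FPKM was 1.802-fold for Atp6v1b1, 1.88-fold for Atp6v0d2, 2.05-fold for Atp6v1c2, 1.94-fold for Atp6v1g3, 1.75-fold for Slc4a1, 2.21-fold for Slc26a4 and 2.42-fold for Foxi1. The corresponding ratio was 0.929 for Atp6v0a4 and 0.768 for Car2, and its median over all genes was 1.12. Without KO 2 the log2 fold changes of KO over WT were below 0 for all 7, from -0.38 for Atp6v1g3 to -0.03 for Foxi1, and limma called none of them. These 7 were picked as highest in KO 2, so leaving it out had to lower their values. Kidney WT 1 was second highest for 6 of the 7. Without WT 1 instead, the median over the 9 was 0.1311, with 7 of the 9 above 0.

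Genes of other cells moved with KO 2 too. All 6 podocyte genes, all 5 distal convoluted tubule genes tested and all 5 smooth muscle genes tested were highest in this library, at a median of 1.99-fold, 1.76-fold and 2.02-fold the other kidneys. After median-of-ratios scaling 6, 5 and 4 of them were, at 1.763-fold, 1.541-fold and 1.804-fold. The podocyte genes summed to 223.5 FPKM in KO 2, 177.7 in WT 1 and 106.9 to 113.6 in the other kidneys, and the distal convoluted tubule genes to 684.5, 520.5 and 292.2 to 491.8, with Pvalb at 0 in all. Of the 8 proximal tubule genes 0 were highest and 6 were lowest in KO 2, and they summed to 2152 FPKM, against 2854 to 3339 in the other kidneys. Over all 15444 genes tested, 2971 were lowest in KO 2. Of 9 principal cell genes tested, 4 were highest in KO 2, at a median of 1.36-fold. Rn7sl1, a small cytoplasmic RNA, made up 22.03% of the summed FPKM in KO 2 and 8.23% to 15.1% in the other kidneys. The part of cell composition and of RNA content in the KO 2 levels was not tested.

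**Figure D2:**
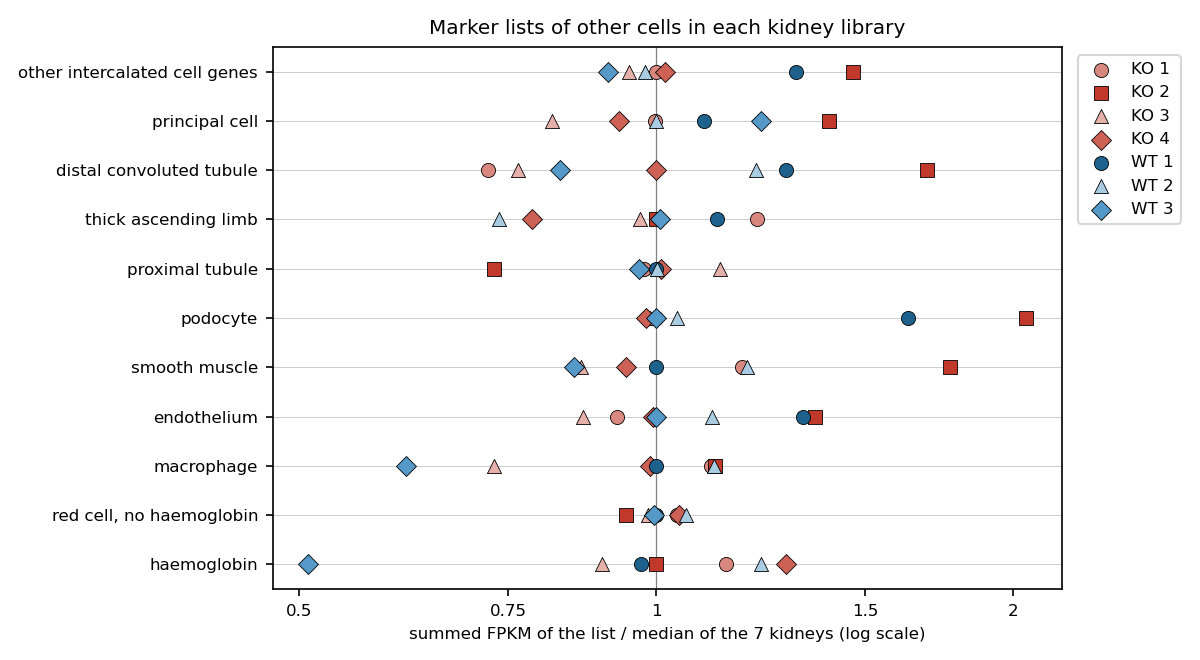
Summed FPKM of cell type marker lists in each kidney library, relative to the median of the 7 kidneys. The podocyte, distal convoluted tubule and intercalated cell lists are highest in kidney KO 2 and next in kidney WT 1, and the proximal tubule list is lowest in kidney KO 2.

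Many other intercalated cell genes were also high in KO 2: 14 of 22 tested were highest in KO 2, at a median of 1.64-fold the other kidneys, beside 37.7% of all genes tested. After median-of-ratios scaling 11 of the 22 were, at a median of 1.496-fold, beside 26.7% of all genes tested. Of the 22, 2 were lowest in KO 2, and the ratios ran from 0.4324 to 3.827, the latter for Oxgr1. The genes named next were all highest there. Rhcg stood at 50.4 FPKM in KO 2 and 24.3 to 40.7 in the other kidneys, Slc4a9, an exchanger of type B cells, at 32.3 and 9.92 to 22.5, and the oxoglutarate receptor Oxgr1 at 15.05 and 3.22 to 6.60. The 19 other V-ATPase genes tested, most of them made by every cell, were not high as a list, at a median of 0.831-fold. Of these, 11 were lowest and 2 highest in KO 2, beside 2971 lowest of all 15444 genes tested.

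Within a kidney library several of the 9 genes kept close proportions. Such ratios were not taken for genes outside the 9, so close proportions are not shown to be particular to them. Podocyte and distal convoluted tubule genes were also highest in KO 2. The ratio of Slc4a1 to Atp6v1b1 lay between 0.822 and 1.08, a 1.31-fold range, whereas Slc4a1 itself spanned 2.18-fold. The ratio also spanned less than the FPKM for Atp6v0d2 (1.41-fold against 2.38-fold), Slc26a4 (1.42-fold against 2.56-fold), Atp6v1c2 (1.48-fold against 2.62-fold), Foxi1 (1.56-fold against 2.81-fold) and Atp6v1g3 (1.77-fold against 2.59-fold). For Atp6v0a4 and Car2 the ratio to Atp6v1b1 spanned more than their FPKM, 2.14-fold against 1.27-fold and 3.04-fold against 1.89-fold.

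The genes outside the 9 whose log2 values over the 7 kidneys were most like the mean profile of the 9 were Cdk11b, a kinase (r = 0.995), Akap12, a scaffold of protein kinase A (r = 0.992), Ston1, an endocytic adaptor (r = 0.991), Dtnb, dystrobrevin beta (r = 0.991), and Dlgap4, a scaffold protein (r = 0.987). They were the top 5 of 13553 genes, and r was 0.967 to 0.986 without KO 2. These are descriptions over 7 libraries that share the differences in composition and total given above.

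For each pump subunit, the share of the intercalated cell isoform in the summed FPKM of all isoforms of that subunit was taken within each library. Atp6v0a4 made up 83.6% ± 2.01 of subunit a in KO kidneys (SD, n = 4) and 83.5% ± 1.53 in WT kidneys (SD, n = 3). The other isoforms were minor forms: Atp6v1b1 made up 21.3% ± 10.8 of subunit B in KO and 17.3% ± 5.57 in WT, Atp6v1g3 19.1% ± 9.83 of subunit G in KO and 18.1% ± 2.21 in WT, Atp6v1c2 17.5% ± 8.65 of subunit C in KO and 15.9% ± 3.78 in WT, and Atp6v0d2 16.3% ± 9.54 of subunit d in KO and 15.1% ± 3.69 in WT. None of the 5 differences between KO and WT kidneys passed in two-sided exact permutation tests, with p from 0.629 to 1, the smallest p that 4 against 3 allows being 0.0571.

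The wide spread among KO kidneys lay in KO 2. There the share was 37.4% for Atp6v1b1, 33.7% for Atp6v1g3, 30.3% for Atp6v1c2 and 30.3% for Atp6v0d2, against at most 23.6%, 19.7%, 19.4% and 19.3% in any other kidney. For these subunits the isoform found in most cells was at its lowest in this library. Atp6v1b2 stood at 82.6 FPKM in KO 2 and 125.6 to 179.6 in the other kidneys, and Atp6v0d1 at 85.1 and 118.4 to 149.4. Atp6v1c1 stood at 53.8 and 62.0 to 79.0, and Atp6v1g1 at 40.9 and 45.9 to 61.2. Atp6v0a1 and Atp6v0a2 of subunit a were not lowest there. Atp6v0a1 stood at 13.71 FPKM in KO 2 and 10.58 to 14.25 in the other kidneys, and Atp6v0a2 at 7.313 and 7.131 to 8.525. The Atp6v0a4 share, at 80.9%, was the lowest of the 7.

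**Figure D3:**
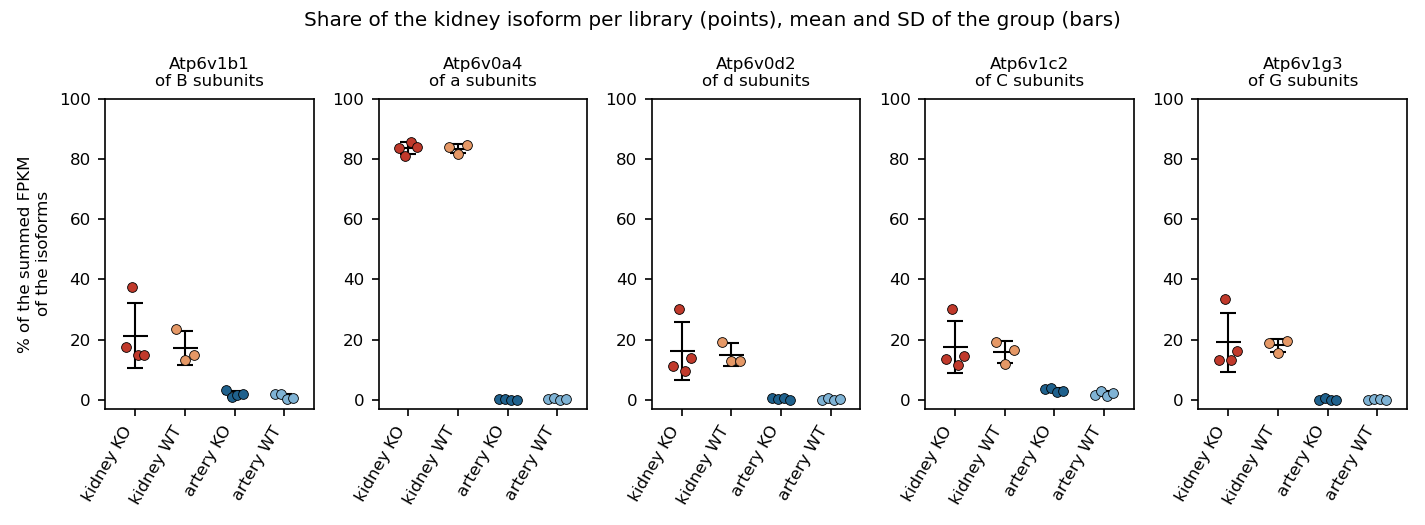
Share (percent of the summed FPKM of all isoforms) of the intercalated cell isoform of each V-ATPase subunit per library, with KO left of WT in each tissue; points are libraries, wide bars the group mean and whiskers the SD. In kidney Atp6v0a4 lies between 80.9% and 85.8%, the other 4 shares are highest in KO 2, and all 5 are small in artery.

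In the artery the 9 genes were near the floor apart from Slc4a1 and Car2. Limma called 0 of 16470 genes (0%) changed in KO arteries, with 863 (5.24%) at an unadjusted p under 0.05, and of the 9 genes Slc4a1, Car2 and Atp6v1c2 passed the filter of a mean of 0.5 FPKM. Foxi1 was listed at 0 in all 4 KO arteries and in 3 of 4 WT arteries, and at 0.0946 FPKM in WT 2. The means of Atp6v1b1, Atp6v0a4, Atp6v0d2, Atp6v1g3 and Slc26a4 lay between 0.0537 and 0.28 FPKM in either genotype.

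Atp6v1c2 stood at 0.885, 1.29, 0.761 and 0.799 FPKM in KO arteries and at 0.425, 0.724, 0.419 and 0.742 in WT arteries. All 4 KO values lay above all 4 WT values, an absence of overlap found for 535 of the genes tested (3.25%). These levels lie near the filter of 0.5 FPKM, and the lowest KO value, 0.761, was close to the highest WT value, 0.742. The log2 fold change of 0.41 (SE 0.20, interval -0.03 to 0.85) did not pass, with a limma unadjusted p of 0.0626 and an adjusted p of 0.893. Its share of subunit C was 3.28% ± 0.639 in KO arteries and 2.13% ± 0.724 in WT arteries (SD, n = 4 each; exact permutation p = 0.0857, adjusted p = 0.857 over 10 shares, the smallest p that 4 against 4 allows being 0.0286).

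Slc4a1 stood at 3.77, 6.02, 9.64 and 28.1 FPKM in KO arteries and at 18.6, 10.7, 3.04 and 166 in WT arteries. Car2 stood at 5.58, 9.14, 15.1 and 35.7 FPKM in KO arteries and at 15.3, 19.8, 7.77 and 109 in WT arteries. For both genes WT 4 was far the highest and KO 4 the next, and the groups overlapped. The log2 fold change was -0.99 (SE 1.04) for Slc4a1 and -0.78 (SE 0.77) for Car2, with limma adjusted p of 0.910 and 0.908. Without artery WT 4 the values were 0.06 and -0.04.

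The KO effects were not shown to differ between the tissues. In the test of the interaction, artery minus kidney, limma called 0 of 16856 genes (0%), with 740 (4.39%) at an unadjusted p under 0.05 and none of the 9 among them; their adjusted p ran from 0.943 to 0.986. Without kidney KO 2, limma again called 0 of 16856 genes, and 640 had an unadjusted p under 0.05, among them 2 of the 9. The median log2 value of the 9 was then 0.3846, against 0.0956 with all libraries. Kidney KO 2 had the highest level of most of the 9, so leaving it out raises their interaction values. Without kidney WT 1 instead, the median was 0.0099. For Atp6v1b1, Atp6v0a4, Atp6v0d2, Atp6v1g3, Slc26a4 and Foxi1 the artery side of this test rests on values near the floor.

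Between the tissues the 9 genes differed widely. Limma called 8 of the 9 higher in kidney than in artery, a direction called for 35.2% of all 16856 genes tested, with 77% called in either direction. The lowest kidney lay above the highest artery for the same 8 genes, and for 24.4% of all genes tested. The filter took the mean over all libraries, so genes near 0 in artery passed it only through their kidney level. For such genes the direction was set in advance, and these counts are descriptions. Without the filter, 7149 of 28438 genes were called higher in kidney, and again 8 of the 9. The log2 fold change of kidney over artery was 7.71 for Atp6v0a4 (SE 0.11, adjusted p = 1.69e-17), 5.49 for Atp6v1b1 (SE 0.15, adjusted p = 1.44e-14), 5.33 for Slc26a4, 5.11 for Atp6v0d2, 4.41 for Atp6v1g3, 3.85 for Car2 (SE 0.46, adjusted p = 1.67e-06), 3.79 for Foxi1 and 3.43 for Atp6v1c2. Since most of these genes were near 0 in artery, the pseudocount sets these values: with pseudocounts of 0.1 and 1, Atp6v0a4 stood at 9.40 and 6.83 and Foxi1 at 5.93 and 2.90.

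Slc4a1 was the exception. It averaged 32.0 FPKM ± 9.16 in kidney (SD, n = 7) and 30.7 ± 55.3 in artery (SD, n = 8), and its log2 fold change of 1.24 (SE 0.63, limma adjusted p = 0.0826) did not pass. It was called without artery WT 4 (1.76, adjusted p = 0.00127) and without artery KO 4 (1.505, adjusted p = 0.0366).

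**Figure D4:**
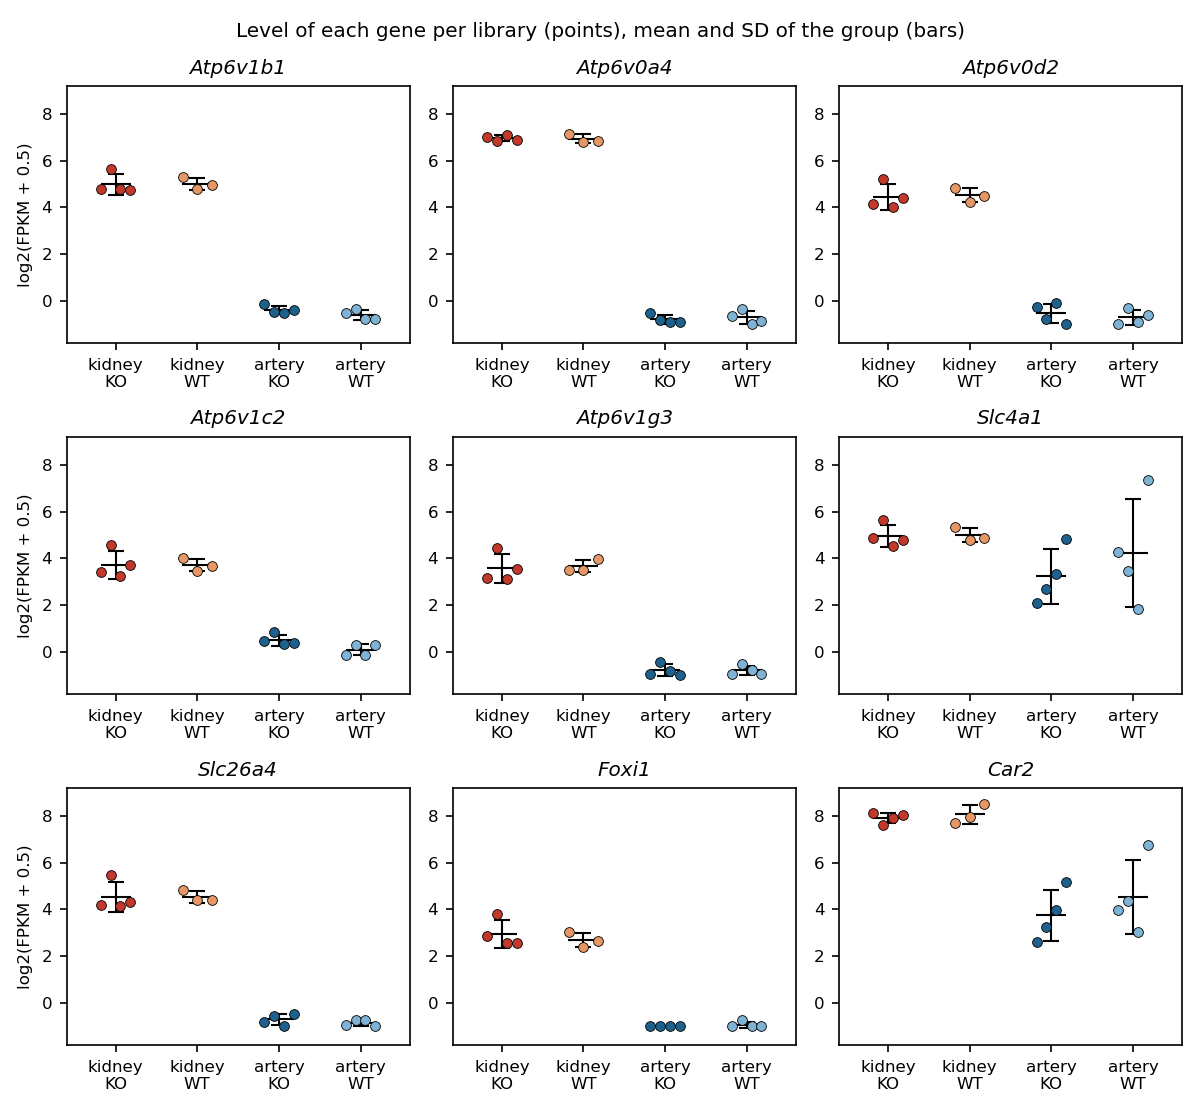
Level of each of the 9 genes as log2(FPKM + 0.5), KO left of WT and kidney left of artery; points are libraries, wide bars the group mean and whiskers the SD. The genes are near the floor in artery except for Slc4a1 and Car2, and KO and WT kidneys overlap for every gene.

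Slc4a1 is also the anion exchanger of red cells, so it was set beside blood content. Transcripts of 12 haemoglobin genes made up 0.561% to 1.53% of the summed FPKM in kidneys and 1.61% to 33.0% in arteries, with 33.0% in artery WT 4 and 11.98% in artery KO 4. Over the 8 arteries Slc4a1 followed the haemoglobin share on log2 scales, with Pearson's r = 0.980 (exact permutation p = 4.96e-05, adjusted p = 9.92e-05 over the 2 tissues) and Spearman's rho = 1 (exact permutation p = 4.96e-05); these are the smallest p-values that the pairings can give. Without artery WT 4 and artery KO 4, r was 0.970 over 6 libraries. In the 7 kidneys r was 0.064 (exact permutation p = 0.906, adjusted p = 0.906) and rho 0.000 (exact permutation p = 1), and without WT 3 and KO 4 r was -0.115 over 5 libraries.

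The level of Slc4a1 per red cell transcript also separated the tissues. Per FPKM of Alas2, the haem synthesis enzyme of red cell precursors, Slc4a1 stood at 1.41 to 4.68 in kidneys and at 0.114 to 0.195 in arteries, without overlap. At the median artery ratio, the Alas2 of the kidneys would go with 0.804 to 2.58 FPKM of Slc4a1, which is 2.83% to 9.38% of the kidney level. The highest kidney ratio was that of WT 3, which had the lowest Alas2 of the kidneys, 6.09 FPKM. KO 2, the kidney with the most Slc4a1, had an Alas2 of 16.9 FPKM, within the range of the other kidneys. Slc4a1 was also set against the summed haemoglobin FPKM, in the same arbitrary units for both tissues. That ratio was 4.228 to 11.05 in kidneys (median 5.004) and 0.5295 to 1.161 in arteries (median 0.6381), again without overlap. The tissues lay relatively closer by haemoglobin than by Alas2, so haemoglobin would give larger percentages than those above. These were not worked out.

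Car2 is made by red cells too, and was set beside blood content after its artery values had been seen. In arteries r with the haemoglobin share was 0.971 (exact permutation p = 0.000347, adjusted p = 0.000694) and rho 0.952 (exact permutation p = 0.00114); without artery WT 4 and artery KO 4, r was 0.919. In kidneys r was -0.636 (exact permutation p = 0.260, adjusted p = 0.260) and rho 0.107 (exact permutation p = 0.840), and r was 0.563 without WT 3 and KO 4. It was 0.635 without WT 3 alone and -0.700 without KO 4 alone, so the negative r rests on WT 3. Per FPKM of Alas2, Car2 stood at 11.4 to 60.6 in kidneys and at 0.128 to 0.321 in arteries.

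**Figure D5:**
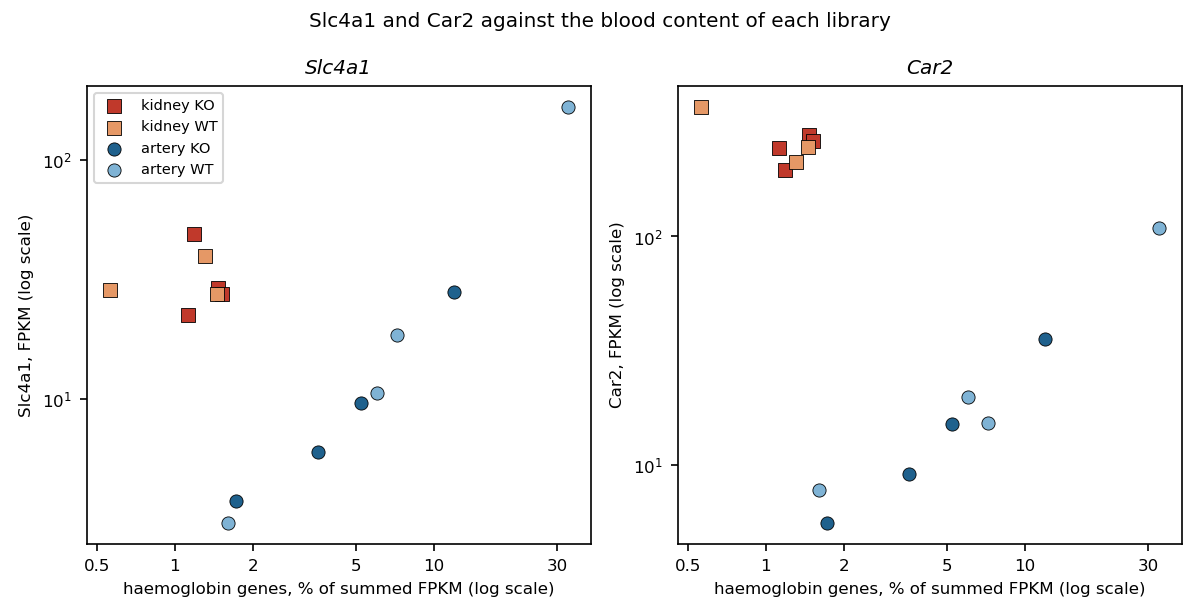
FPKM of Slc4a1 (left) and Car2 (right) against the haemoglobin share of the summed FPKM in percent, each point a library and both axes logarithmic. Slc4a1 climbs with the share over the 8 arteries (r = 0.980), and the 7 kidneys lie apart at shares of 0.561% to 1.53%, all above the arteries of lowest share for both genes.

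Other genes of acid-base transport gave no call between KO and WT in either tissue. In kidney the median log2 fold change was -0.07 over the 19 other V-ATPase genes tested, -0.01 over 22 other intercalated cell genes and -0.02 over 22 acid-base genes of other segments, beside 0.04 over all genes. The smallest p of these lists belonged to Atp6v1b2 (-0.34, SE 0.25), to the vasopressin receptor Avpr1a (-0.27, SE 0.20) and to the sodium bicarbonate transporter Slc4a7 (0.45, SE 0.30), with 0 of the 3 lists' genes at an unadjusted p under 0.05. Of 11 other carbonic anhydrases, 1 had an unadjusted p under 0.05: Car3, the muscle and fat form, with a log2 fold change of 1.04 (SE 0.26, adjusted p = 0.999) at 0.728 to 1.33 FPKM in KO kidneys and 0.112 to 0.538 in WT kidneys. In artery the corresponding medians were 0.03 over 18 V-ATPase genes, -0.00 over 8 intercalated cell genes and 0.09 over 15 acid-base genes, beside 0.04 over all genes, and the ammonia channel Rhbg was the single gene at an unadjusted p under 0.05 (0.52, SE 0.23, adjusted p = 0.893). Between the tissues 17 of 21 other intercalated cell genes and 12 of 18 other V-ATPase genes were called higher in kidney, and 3 and 2 lower. Under the same filter, 35.2% of all genes tested were called higher in kidney.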

How the data were processed

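Total RNA was extracted with TRIzol and sequenced from 15 libraries, per the labels' protocols. The deposited table holds the authors' FPKM values, 1 column per library; the sources used here do not name the tool that made them. The submitters' processing notes list the tools HISAT2 2.2.1, Trim Galore 0.6.2 and DESeq2 1.46.0, and the build rn7, without roles. A deposited coverage signal column (1 column), which belongs to no stated library, was not used here. Of 40694 rows, 6337 without an identifier were 0 throughout and were left out. Low values did not step by whole reads, so the depth is unknown and no count test, interval or limit of detection was made.

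Genes averaging 0.5 FPKM or more were tested on log2(FPKM + 0.5) with limma 3.58.1 in R 4.3.3 (trend and robust moderation, two-sided, Benjamini-Hochberg, threshold 0.05): KO against WT within each tissue, and the interaction and kidney against artery over all libraries. Shares and correlations used exact permutation tests (scipy 1.17.1). Scripts were tested on simulated data. The genes named were the 9, the 5 most like in profile (mean of at least 1 FPKM) and the red cell genes. Of each acid-base list described, the gene with the smallest p in kidney was named. Others, such as Rhcg, Slc4a9, Oxgr1 and Rn7sl1, were examples picked without a fixed rule. The genes and lists were chosen with earlier results of these data known. Alternatives were other pseudocounts, filters, scalings, moderation, weights, a replicate block, covariates and leaving out each library.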

Additional observations from a re-analysis of the deposited data

Results flagged for a closer look

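Within groups of 4 libraries, 8 of the 22 sets of values tested had 1 library whose gap to the nearest of the others exceeded Dixon's critical value. Chance gives about 5% of sets. The sets share libraries and the isoform shares reuse the FPKM values, so the flags are not independent. How many of all genes would be flagged was not counted. Of the 8, 6 fell on kidney KO 2, which was the highest library for 37.7% of all genes tested in kidney. There Atp6v1b1 stood at 49.3 FPKM, against 26.2 to 27.4 in the other 3 KO kidneys, Slc26a4 at 44.5, against 17.4 to 19.7, and Foxi1 at 13.5, against 5.38 to 6.70. The isoform share was 37.4% for Atp6v1b1 in KO 2, against 15.03% to 17.7%, 30.3% for Atp6v1c2, against 11.6% to 14.5%, and 33.7% for Atp6v1g3, against 13.2% to 16.3%. The others fell on artery WT 4, with 166 FPKM of Slc4a1, against 3.04 to 18.6 in the other 3 WT arteries, and 109 FPKM of Car2, against 7.77 to 19.8.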

How the results depend on the processing

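Of the tests across all genes, the artery comparison of KO and WT called 1 gene with a pseudocount of 0.1 and 0 to 1 when single libraries were left out (1 without WT 2 and 1 without KO 3). The kidney comparison called 282 with array weights, which did not converge and gave WT 2 a weight of 18.2, and 0 to 1 when single libraries were left out (1 without WT 1). None of the 9 genes was among these calls. The interaction stayed at 0 to 0. With single libraries left out, the kidney against artery count lay between 12580 and 13127, with 8 to 9 of the 9 genes called. Isoform shares gave 0 to 0 calls, but these group sizes allow no call after adjustment. The correlation of Slc4a1 with the haemoglobin share ran from 0.978 to 0.984 in artery and from -0.213 to 0.139 in kidney, where it was -0.115 without WT 3 and KO 4; for Car2 in kidney it was 0.563 there, and ran from -0.761 to 0.635 when 1 library was left out (-0.875 with the red cell list as blood content).

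No KO against WT value of the 9 genes passed the adjusted threshold in any alternative, but small fold changes turned sign. In artery, Slc4a1 was 0.0252 with the red cell list as covariate. In kidney, median-of-ratios scaling gave -0.0158 for Atp6v0a4 and -0.0380 for Atp6v1c2; quantile normalization gave 0.0228 for Atp6v1b1, 0.0174 for Slc4a1, 0.0350 for Slc26a4 and 0.0060 for Car2; array weights gave 0.0121 for Atp6v1b1, 0.0100 for Atp6v0d2, 0.0275 for Slc4a1 and 0.0751 for Car2; the red cell covariate gave -0.131 for Atp6v1c2; and the principal cell covariate gave 0.0469 for Atp6v1b1, 0.0060 for Atp6v0d2, 0.0488 for Slc4a1 and 0.0936 for Slc26a4. The cause was not tested. With 1 library left out, kidney log2 fold changes ran from -0.0161 to 0.157 for Atp6v0a4, -0.345 to 0.0723 for Atp6v0d2, -0.25 to 0.11 for Atp6v1b1, -0.26 to 0.19 for Atp6v1c2, -0.382 to 0.0584 for Atp6v1g3, -0.312 to 0.0909 for Car2, -0.0345 to 0.42 for Foxi1, -0.32 to 0.14 for Slc26a4 and -0.26 to 0.13 for Slc4a1; the artery value of Slc4a1 ran from -1.79 to 0.0586, and the interaction from -0.0554 to 0.38 for Atp6v1g3, -1.14 to 0.10 for Car2 and -1.76 to 0.0940 for Slc4a1. Differences of shares, KO minus WT in percentage points, ran in kidney from -0.729 to 1.011 for Atp6v0a4, -3.45 to 3.5 for Atp6v0d2, -1.39 to 7.16 for Atp6v1b1, -2.72 to 3.52 for Atp6v1c2 and -3.87 to 2.96 for Atp6v1g3, and in artery from -0.182 to 0.0163 for Atp6v0a4 and -0.118 to 0.0994 for Atp6v1g3.

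Whether the replicate numbers pair the libraries was not settled. Same-numbered KO and WT libraries correlated at 0.321, -0.342, 0.244 and 0.302 in artery and 0.082, -0.008 and 0.273 in kidney. Differently numbered ones ran from -0.447 to 0.446 in artery and from -0.296 to 0.342 in kidney. With the replicate number as a block, limma called 0 genes in each tissue, and Atp6v1b1 stood at 0.0533, Slc4a1 at 0.0153 and Slc26a4 at 0.0639 in kidney.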
